A study of Arabidopsis thaliana with 16 samples.

Results

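The WRKY transcription factor genes of *Arabidopsis thaliana* were examined for the histone variant H2A.Z. Members were the protein-coding genes of the TAIR10 genome whose annotated symbol is WRKY or ATWRKY followed by a number, and 67 of 27444 protein-coding genes met this rule. The other 27377 protein-coding genes served as the background. H2A.Z and H3 chromatin immunoprecipitation with sequencing (ChIP-seq) was performed on Columbia-0 shoots collected 13 days after germination from plates kept in long days. The 4 genotypes were wild type, *mbd9-3* (a mutant of MBD9, a methyl-CpG-binding domain protein associated with the SWR1 complex), *arp6-1* (a mutant of ARP6, a core subunit of SWR1) and the *arp6-1 mbd9-3* double mutant. Each genotype had 2 replicates from separate plates, and each replicate was split between the H2A.Z and the H3 antibody. Each mutation was represented by a single allele, and whole shoots hold many cell types, so that fewer cells carrying H2A.Z and less H2A.Z per cell cannot be told apart.

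WRKY proteins are plant transcription factors named after the amino acids tryptophan, arginine, lysine and tyrosine at the start of their DNA-binding domain. The domain recognises the W box, a short element with the core TTGAC, and many family members act downstream of mitogen-activated protein (MAP) kinases in the response to pathogens, while others act in senescence, phosphate supply or development. SWR1 is the remodeller that exchanges H2A for H2A.Z in nucleosomes, most often just downstream of the transcription start site (TSS) and, in genes that respond to the environment, also over the gene body.

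The family was spread over all 5 nuclear chromosomes, with 15 members each on chromosomes 1, 2 and 5, 16 on chromosome 4 and 6 on chromosome 3. Genes ranged from 714 to 8171 bp between the TSS and the transcription end site (TES), with a median of 2006 bp beside 2078 bp for the other genes. The annotated coding sequence held 1 WRKY motif in 57 members and 2 in 10 members. By motif number and zinc-finger spacing, 10 members fell into group I, 44 into group II and 12 into group III, and WRKY19, whose protein joins immune receptor and kinase parts to the WRKY domain, was left unclassified. A pair on chromosome 2, WRKY55 and WRKY54, faced each other with 919 bp between them, and a pair on chromosome 1, WRKY67 and WRKY64, lay 3857 bp apart on the same strand.

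The deposited data are 16 lists of summits, the positions of highest enrichment within called peaks. In 8 lists H2A.Z was compared with H3 of the same genotype and replicate, and in the other 8 H2A.Z was compared between genotypes, so that a summit marks a loss of H2A.Z. Each summit has a score, −log10 of the q value, and scores are read only within a list. Replicates 1 and 2 of H2A.Z over H3 gave 29980 and 26536 summits for wild type, 15024 and 17839 for *mbd9-3*, 3827 and 7506 for *arp6-1*, and 1243 and 1265 for the double mutant. The read depth of the libraries is unknown from these lists. A summit position was called common where summits of both replicates lay no more than 200 bp apart, and a gene carried it where the shared region touched any part of TSS to TES. A gene touched by a common loss region is called H2A.Z-depleted. With 2 replicates a genotype the smallest two-sided exact permutation p is 0.333, so no test between genotypes was made. Intervals are exact Clopper-Pearson 95% intervals of a share and cover counting error only.

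Between TSS and TES of the members, the wild-type lists held 103 summits in replicate 1 and 91 in replicate 2, in 58 members each (61.2 and 54.4% of all other genes). The *mbd9-3* lists held 51 and 64 summits in 34 and 42 members (33.6 and 38.0% of others), and the *arp6-1* lists 19 and 36 summits in 14 and 24 members (10.7 and 18.7% of others). In the double mutant 9 and 7 summits were left, in 6 and 7 members (3.53 and 3.66% of others). In both replicates the number fell from wild type to *mbd9-3*, *arp6-1* and the double mutant in that order, and the replicates of neighbouring genotypes did not overlap. The totals of the complete lists, given above, fell in the same order and also did not overlap, so this order is not particular to the members. Loss summits numbered 20 and 16 for *mbd9-3*, in 17 and 11 members (22.7 and 14.9% of others), and 79 and 59 for *arp6-1*, in 46 and 40 members (57.6 and 49.8% of others). For the double mutant there were 87 and 76, in 55 and 51 members (63.4 and 58.6% of others). The double mutant compared with *arp6-1* had 1 and 3, in as many members (3.73 and 6.55% of others).

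**Figure D1:**
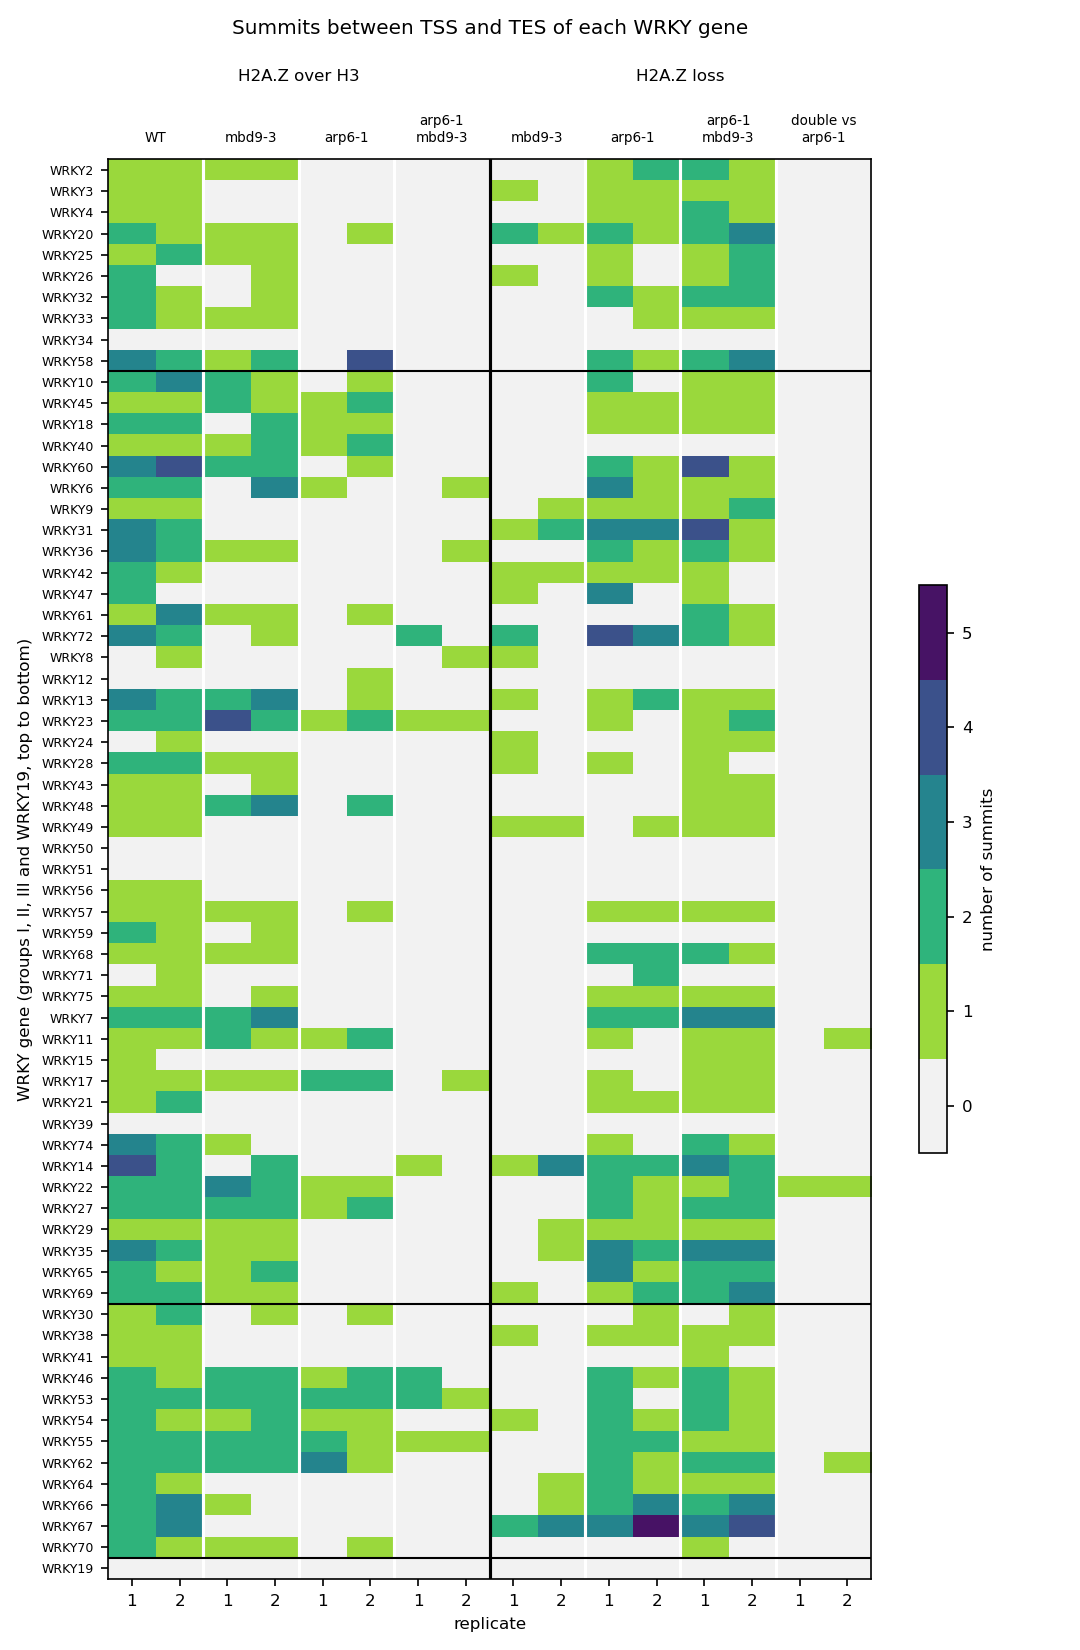
Number of summits between TSS and TES of each of the 67 WRKY genes (rows, by group I, II, III and WRKY19) in the 16 lists (columns, replicates 1 and 2 of each genotype or comparison). Wild-type summits were present in 58 members in each replicate, and the double mutant columns held 6 and 7 members.

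In wild type, most WRKY genes carried H2A.Z. A common wild-type summit was found in 55 of 67 members, which is 82.1% (interval 70.8 to 90.4%), beside 50.8% of all other protein-coding genes. This share was alike in every length class, at 8 of 10 members under 1500 bp (47.7% of others), 33 of 40 members of 1500 to 2500 bp (54.0% of others) and 14 of 17 longer members (50.5% of others). All 12 group III members had a common summit, as did 8 of 10 in group I and 35 of 44 in group II. Within group II the count was 7 of 7 in subgroup IIe and 11 of 17 in subgroup IIc. With summits scoring 5 or more, 34 members (50.7%) and 33.0% of the other genes were called.

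The wild-type scores of the members lay near the middle of their lists. Among all genes with a summit, the median percentile of the members' best score was 58.0 in replicate 1 and 49.0 in replicate 2. The members with the highest score in the weaker replicate were WRKY58 (17.5 and 17.0), WRKY54 (25.5 and 16.7), WRKY17 (14.6 and 13.8), WRKY55 (13.6 and 14.0) and WRKY46 (14.4 and 12.0). WRKY54 acts with WRKY70 in salicylic acid signalling and leaf senescence, WRKY46 acts in basal defence, and WRKY17 limits basal resistance to *Pseudomonas syringae*. Both genes of the facing pair, WRKY54 and WRKY55, were thus among the 5 highest.

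A larger share of members than of other genes had several common regions. At least 2 common wild-type regions were found in 25 members (37.3%, beside 15.7% of all other genes), and of the genes that carried any such region, 25 of 55 members had several (45.5%, interval 32.0 to 59.4%, beside 30.9%). Several regions need not be several places in both replicates, since 1 summit could pair with 2 of the other replicate. In WRKY25 (replicate 1), WRKY59 and WRKY65 (both replicate 2) the 2 regions shared the only summit of that replicate. The other genes were counted in the same way. WRKY60, which works with WRKY18 and WRKY40 in defence and abscisic acid responses, had the most, with 4 regions. They were centred 248, 757, 857 and 1225 bp from the TSS and came from 3 summits in replicate 1 and 4 in replicate 2. The adjoining regions at 757 and 857 bp shared 1 summit of replicate 1. WRKY66 followed with 3 regions at 293, 416 and 839 bp, from 2 summits in replicate 1 and 3 in replicate 2. Its regions at 293 and 416 bp likewise shared 1 summit of replicate 1. In subgroup IIe 6 of 7 members, WRKY65 among them, had at least 2 regions.

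The 83 common wild-type regions of the members lay further into the gene than those of other genes. Their centres were at a median of 577 bp from the TSS, beside 459 bp for the other genes. Within 500 bp of the TSS lay 33 regions (39.8%, beside 54.0%), in the gene body 40 (48.2%, beside 34.3%), and within 500 bp of the TES 10 (12.0%, beside 11.7%). The region nearest to the TSS was at a median of 425 bp in the 55 members and 358 bp in the other genes. The difference was also present within length classes. In genes of 1500 to 2500 bp the medians were 723 and 507 bp, and in longer genes 4 of 19 member regions (21.1%) were within 500 bp of the TSS, beside 49.5%. In genes under 1500 bp, in contrast, the medians were 297.5 bp in members and 378.0 bp in others.

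Of the genes of at least 1500 bp in which wild type had a common summit, 30 of 47 members (63.8%, interval 48.5 to 77.3%) had a gene-body region, beside 43.6% of other genes, and 10 of 47 (21.3%) had regions only within 500 bp of the TSS, beside 49.5%. A region within 500 bp of the TES was found in 8 of 47 (17.0%, beside 14.1%). Over all members of at least 1500 bp these 30 of 57 amount to 52.6%, beside 22.7%. The count followed the window chosen for the 5′ and 3′ ends, with 42 members (40.6% of others) at 300 bp and 14 members (13.4% of others) at 700 bp. By annotation, the centre of 74 of the 83 regions fell in a coding exon (89.2%, beside 82.7%), of 5 in an intron and of 4 in a 5′ UTR. Of the 78 exonic centres, 44 were in the first exon, 10 in an inner exon and 24 in the last exon. These exon counts were not made for the other genes, and members had a median of only 2 introns, so they show no trait of the family.

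The family is named after tryptophan, arginine, lysine and tyrosine, and the position of the common wild-type regions was compared with this motif of 4 codons. How often regions of this size would cover the motif by position alone was not computed, so no avoidance of it is shown. The midpoints of the 77 copies of this motif lay a median of 1135 bp from the TSS (range 150 to 3809 bp). The 201 bp around the centre covered a whole motif in 2 of the 83 common wild-type regions (2.41%), and the median distance from a motif to the nearest region of its gene was 448 bp over 63 motifs. These 2 regions were in WRKY66 and WRKY67, group III genes of chromosome 1 that are not neighbours. Both regions are shown 5′ to 3′ on the coding strand, with the 4 codons in capitals, because they are the only ones that cover all 4 codons and spell them alike.
WRKY66 region at 416 bp (chr1:30296708-30296908, minus strand): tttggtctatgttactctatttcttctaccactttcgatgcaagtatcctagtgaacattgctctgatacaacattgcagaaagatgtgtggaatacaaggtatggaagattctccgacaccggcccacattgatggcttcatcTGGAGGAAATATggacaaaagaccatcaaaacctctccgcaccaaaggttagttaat
WRKY67 region at 532 bp (chr1:24828934-24829134, plus strand): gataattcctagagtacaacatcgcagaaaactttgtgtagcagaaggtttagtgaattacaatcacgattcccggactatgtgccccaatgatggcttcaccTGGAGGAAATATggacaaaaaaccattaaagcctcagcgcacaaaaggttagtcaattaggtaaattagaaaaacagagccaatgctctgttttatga
In both genes the codons were spelled TGGAGGAAATAT, the commonest of 17 spellings, which was found in 11 of the 77 motifs. The lower of the replicate scores was 4.01 for the region of WRKY66 and 3.18 for that of WRKY67.

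No common wild-type summit was found in 12 members, namely WRKY8, WRKY12, WRKY15, WRKY19, WRKY24, WRKY26, WRKY34, WRKY39, WRKY47, WRKY50, WRKY51 and WRKY71. Of these, 6 had a wild-type summit in 1 replicate only. WRKY24 had one in replicate 2 at 245 bp with a score of 10.3, the highest of the 6, and WRKY47 had 2 in replicate 1, at 229 and 2944 bp, with scores of 4.51 and 6.37. WRKY12, which controls pith cell walls in the stem, had no wild-type summit in either replicate and a single summit in *arp6-1* replicate 2 (161 bp, score 3.64). WRKY19, WRKY34, WRKY39, WRKY50 and WRKY51 had no summit in any of the 16 lists. WRKY34 is a pollen gene, and WRKY50 and WRKY51 are close relatives that act where salicylic acid represses jasmonic acid responses. None of the 12 was H2A.Z-depleted in any comparison.

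H2A.Z was then followed in the mutants. A common summit was called in 31 members in *mbd9-3* (46.3%, beside 29.5% of others), in 12 members in *arp6-1* (17.9%, beside 8.63%) and in 1 member in the double mutant (1.49%, beside 1.26%). Since more members than other genes carried H2A.Z in wild type, the shares were also taken over the genes marked in wild type, where members and others were close. There 31 of 55 members (56.4%, interval 42.3 to 69.7%) had a common summit in *mbd9-3*, beside 55.7%, and 12 of 55 (21.8%, interval 11.8 to 35.0%) in *arp6-1*, beside 16.8%. In the double mutant it was 1 of 55 (1.82%, interval 0.0460 to 9.72%), beside 2.45%. Position by position, 40 of the 83 wild-type regions (48.2%, beside 47.4%) had a common *mbd9-3* region within 200 bp, 14 (16.9%, beside 12.3%) a common *arp6-1* region and 1 (1.20%, beside 1.78%) a common region in the double mutant.

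**Figure D2:**
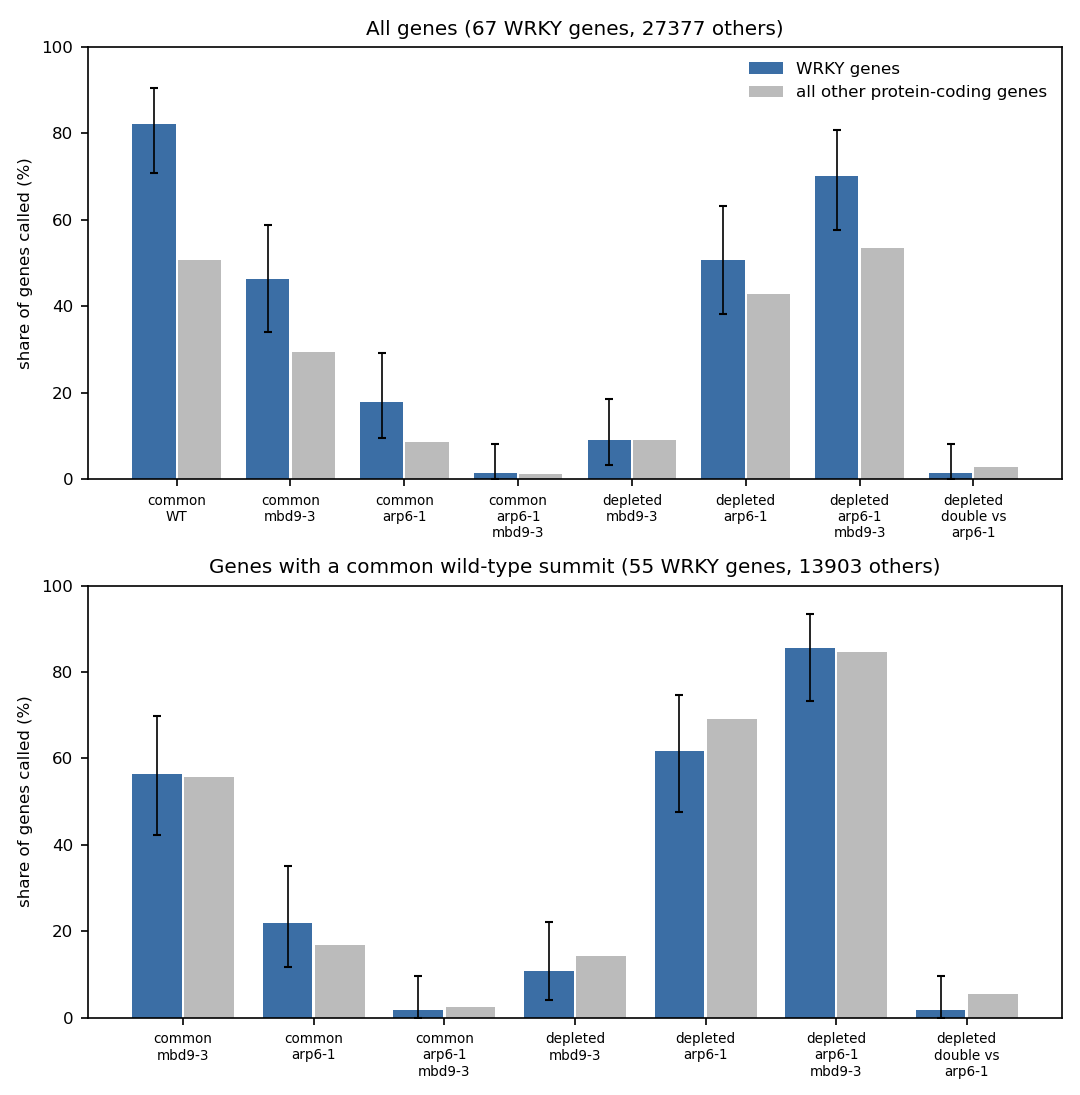
Share of WRKY genes (blue, with exact 95% intervals) and of all other protein-coding genes (grey) with a common H2A.Z summit in each genotype and H2A.Z-depleted in each comparison, over all genes (top) and over genes with a common wild-type summit (bottom). Members stood at 82.1% and others at 50.8% for the wild-type summit, and at 56.4% and 55.7% for *mbd9-3* in the bottom panel.

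Loss of MBD9 depleted WRKY genes at a share near that of all other genes. WRKY14, WRKY20, WRKY31, WRKY42, WRKY49 and WRKY67 were H2A.Z-depleted in *mbd9-3*, which is 6 of 67 members (8.96%, interval 3.36 to 18.5%), beside 9.11% of all other genes. Of the members marked in wild type it was 6 of 55 (10.9%, interval 4.11 to 22.2%), beside 14.3%. Replicate 1 alone gave 17 members (22.8% of others) and replicate 2 alone 11 (15.1% of others), and with summits of a score of at least 5 there were 3 (2.89% of others). By length, 2 of 10 members under 1500 bp were depleted (7.88% of others), 0 of 40 members of 1500 to 2500 bp (8.36% of others) and 4 of 17 longer members (10.8% of others).

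WRKY67 stood out among the 6. In wild type its first region had scores of 19.3 at 149 bp in replicate 1 and 7.00 at 169 bp in replicate 2, and the gene had no summit in any mutant list of H2A.Z over H3. The loss in *mbd9-3* had scores of 17.2 at 149 bp and 15.2 at 147 bp, the highest of any member in each of these lists. The same place was lost in *arp6-1* (10.9 and 12.0) and in *arp6-1 mbd9-3* (21.6 and 10.2). The 201 bp around its wild-type centre, 159 bp from the TSS, lie within the first coding exon and are shown as the place of the highest-scoring loss in *mbd9-3* among the members.
WRKY67 region at 159 bp (chr1:24828561-24828761, plus strand): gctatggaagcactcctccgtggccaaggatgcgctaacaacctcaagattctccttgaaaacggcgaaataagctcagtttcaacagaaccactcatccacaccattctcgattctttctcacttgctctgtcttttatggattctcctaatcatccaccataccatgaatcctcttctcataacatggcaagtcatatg
No W box, searched as TTGACC or TTGACT on either strand, is present in this stretch.

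In the other 5 genes the loss was at 1 place each. It was in the 5′ part of WRKY31 (425 bp, loss scores 8.16 and 8.72) and WRKY49 (175 bp, 4.94 and 7.32), and further in for WRKY14 (2512 bp, 3.17 and 4.70), WRKY20 (1236 bp, 3.90 and 3.05) and WRKY42 (1980 bp, 6.97 and 5.20). WRKY42, a regulator of phosphate transporter genes, was also depleted in *arp6-1* (5.05 and 6.61), and in the double mutant it had a loss summit in replicate 1 only (8.49). In *mbd9-3* WRKY20 had a common summit elsewhere in the gene, at 453 bp (2.49 and 4.88), where wild type had no common region. The other 5 had no common *mbd9-3* summit. WRKY14 had *mbd9-3* summits at 456 bp (4.51) and 2518 bp (2.51) in replicate 2 alone.

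Loss of ARP6 depleted 34 members (50.7%, interval 38.2 to 63.2%), beside 42.8% of all other genes. Of the members marked in wild type it was 34 of 55 (61.8%, interval 47.7 to 74.6%), beside 69.0%. Scores of at least 5 left 14 members (20.9%, beside 22.8%). By position, 42 of the 83 wild-type regions (50.6%, beside 57.8%) had a common *arp6-1* loss region within 200 bp. The members' loss scores were slightly below the middle of the lists, with median percentiles of 42.7 and 45.5.

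The 12 members that still had a common summit in *arp6-1* were WRKY11, WRKY17, WRKY18, WRKY22, WRKY23, WRKY27, WRKY40, WRKY45, WRKY46, WRKY53, WRKY54 and WRKY55. Of these, 8 belong to the genes listed for immunity, which were 25 of the 67 members and 22 of the 55 marked in wild type. WRKY45 activates a phosphate transporter gene, and WRKY23 acts in root and embryo development. All 12 had a common wild-type summit, and 11 had one in *mbd9-3*, the exception being WRKY18 with *mbd9-3* summits in replicate 2 alone (4.13 and 4.35). Loss was nevertheless called in 6 of the 12 for *arp6-1* and in 11 for the double mutant. Of the other genes marked in wild type, 69.0% were depleted in *arp6-1* and 84.5% in the double mutant. The shares among other genes that kept an *arp6-1* summit were not computed. Replicate 1 alone gave 14 members (10.8% of others) and replicate 2 alone 25 (18.9% of others). At a score of at least 5 in both replicates 3 members were left (4.48%, beside 4.25%).

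In these genes some *arp6-1* summits lay near the wild-type position and others lay away from it. WRKY17 had *arp6-1* summits at 343 bp (9.04) and 514 bp (3.42) in replicate 1 and at 361 bp (12.1) and 621 bp (7.40) in replicate 2, around its wild-type summits at 571 and 583 bp. WRKY46 kept its summit in the last part of the gene, at 1018 bp (7.71) and 931 bp (8.63), where wild type had 915 bp (14.4) and 953 bp (12.0). WRKY11, the closest relative of WRKY17, had *arp6-1* summits at 504 bp (5.43) in replicate 1 and at 627 bp (8.74) and 950 bp (6.86) in replicate 2, on both sides of its wild-type summits at 835 and 695 bp. WRKY27 kept its 5′ region (2.88 and 9.03) but had its second summit in *arp6-1* replicate 2 only (1182 bp, 6.11), where *mbd9-3* had scores of 15.3 and 25.7.

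WRKY40, a repressor of pathogen-induced genes, was the only one of the 12 that was H2A.Z-depleted in no comparison, and it had no summit in any of the 8 loss lists. Its 5′ summits over H3 were at 298 bp (10.3) and 247 bp (4.16) in wild type, 312 bp (3.82) and 278 bp (9.48) in *mbd9-3*, and 277 bp (3.68) and 268 bp (5.45) in *arp6-1*. A second summit, with none in wild type, was called in replicate 2 alone of *mbd9-3* (1018 bp, 7.32) and of *arp6-1* (952 bp, 4.85). In *arp6-1 mbd9-3* no summit was called at WRKY40 in either replicate, so the H3-relative lists and the loss lists differ there. Its partner WRKY18 kept an *arp6-1* summit near 545 bp (4.64 and 5.28), and the third gene of the trio, WRKY60, had an *arp6-1* summit in replicate 2 alone (1176 bp, 5.19).

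In *arp6-1 mbd9-3* 47 members were H2A.Z-depleted (70.1%, interval 57.7 to 80.7%), beside 53.6% of all other genes. Of the members marked in wild type these were 47 of 55 (85.5%, interval 73.3 to 93.5%), beside 84.5%. The 8 members with a common wild-type summit that were not called were WRKY28, WRKY30, WRKY40, WRKY41, WRKY42, WRKY56, WRKY59 and WRKY70. Like WRKY40, WRKY56 and WRKY59 had no summit in any loss list, and their wild-type scores were low (4.34 and 4.69 for WRKY56, 5.10 and 3.10 for WRKY59). WRKY70, a node between salicylic and jasmonic acid signalling, had a loss summit in replicate 1 only (386 bp, 9.13), and WRKY28 likewise (501 bp, 3.18). The only common region of WRKY41, at 1482 bp, also touches the neighbouring gene AT4G11080.

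WRKY53, a regulator of leaf senescence and defence, was the only member with a common summit in all 4 genotypes. Its first region had scores of 8.43 and 11.3 in wild type and 14.2 and 15.1 in *mbd9-3*. In *arp6-1* the scores were 4.25 and 6.11, and the double mutant still had 5.70 and 5.55. All 8 summits lay between 431 and 515 bp from the TSS. The second region was at 979 and 970 bp in wild type (14.1 and 7.49), and in the double mutant a summit was called near it in replicate 1 alone, at 865 bp (2.06). The first region was nevertheless H2A.Z-depleted in the double mutant (3.65 and 5.80 at 475 bp in both replicates). Either replicate alone gave 6 or 7 members with a summit in the double mutant (3.57 and 3.69% of others), among them WRKY23 and WRKY55, whose summits were in both replicates at different places. Both wild-type regions of WRKY53 are coding exon and are shown because they hold the only position of the family that was common to every genotype and its neighbour in the same gene, with W boxes in capitals.
WRKY53 region at 475 bp (chr4:12393407-12393607, minus strand): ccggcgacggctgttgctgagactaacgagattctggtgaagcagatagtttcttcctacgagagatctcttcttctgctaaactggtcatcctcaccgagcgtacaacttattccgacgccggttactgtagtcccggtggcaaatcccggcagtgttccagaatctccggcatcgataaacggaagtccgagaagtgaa
WRKY53 region at 975 bp (chr4:12392907-12393107, minus strand): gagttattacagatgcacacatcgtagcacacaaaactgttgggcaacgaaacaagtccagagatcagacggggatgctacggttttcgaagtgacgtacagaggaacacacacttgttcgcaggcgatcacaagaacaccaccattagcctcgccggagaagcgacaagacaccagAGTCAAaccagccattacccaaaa
The retained region holds no W box, and the region at 975 bp holds 1.

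A further loss in *arp6-1 mbd9-3* compared with *arp6-1* was called in WRKY22 alone (1.49%, interval 0.0378 to 8.04%, beside 2.86% of all other genes). WRKY22 acts with WRKY29 downstream of a MAP kinase cascade that responds to bacterial flagellin. Its 5′ region had scores of 7.62 and 14.9 in wild type, 5.46 and 3.45 in *mbd9-3* and 4.44 and 5.31 in *arp6-1*, and no summit in *arp6-1 mbd9-3*. The further loss had scores of 4.46 at 315 bp and 5.50 at 209 bp, and the call was lost when summits were joined only within 100 bp. Replicate 2 alone added WRKY11 (629 bp, 4.31) and WRKY62, which makes 3 members (6.65% of others). The second region of WRKY22, near 1163 bp, had summits in wild type (8.93 and 9.19) and *mbd9-3* (4.46 and 3.09) and none in *arp6-1*. The 201 bp around the 5′ centre are shown as the only position of the family called in this comparison.
WRKY22 region at 265 bp (chr4:523884-524084, minus strand): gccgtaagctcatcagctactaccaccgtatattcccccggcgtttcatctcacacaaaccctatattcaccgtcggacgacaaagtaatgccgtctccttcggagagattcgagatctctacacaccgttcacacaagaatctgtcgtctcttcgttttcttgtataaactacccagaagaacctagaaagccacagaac
This stretch is coding exon and holds no W box.

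**Figure D3:**
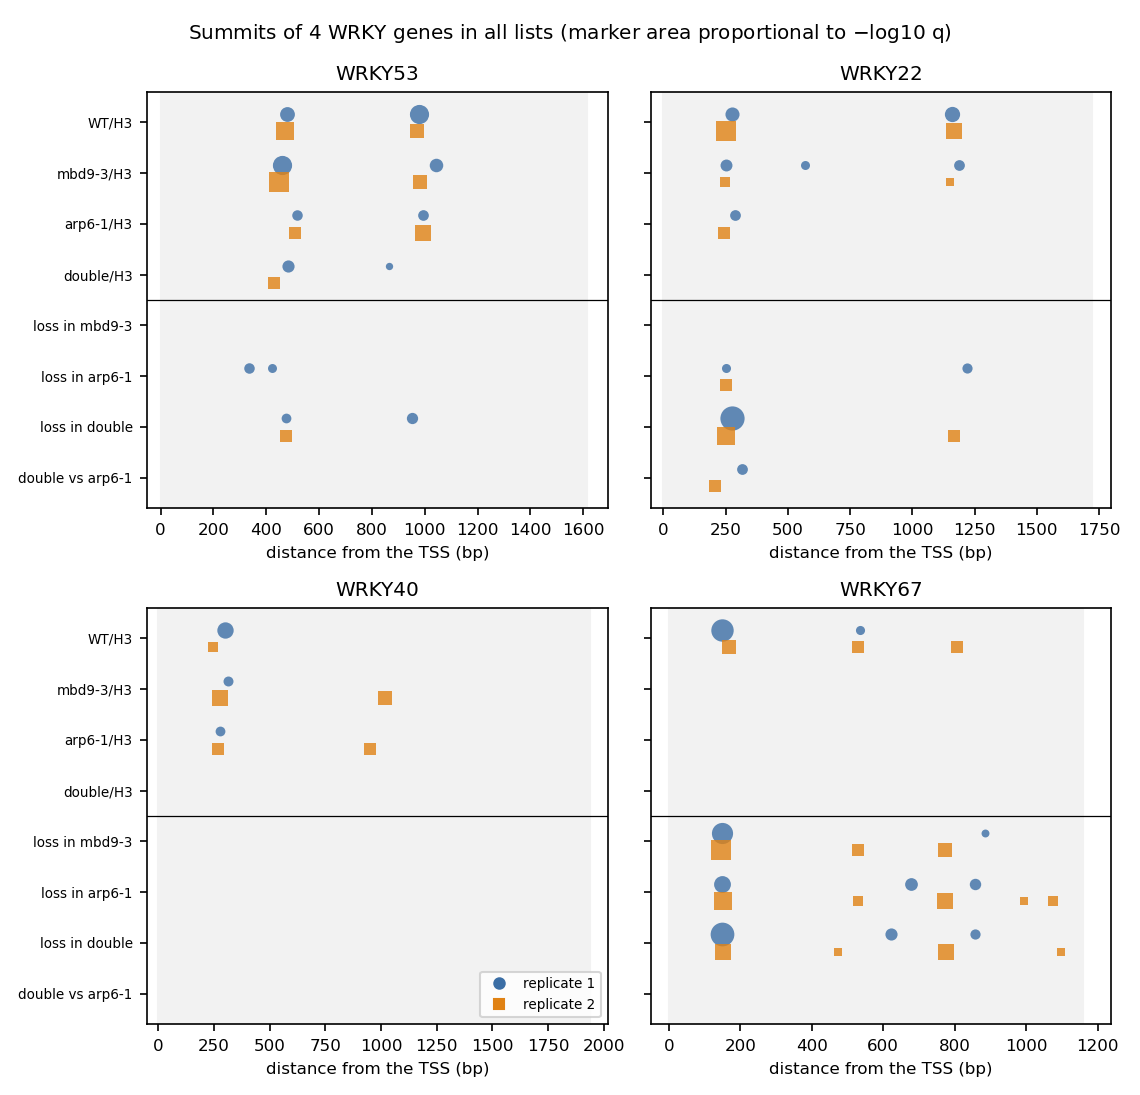
Summits of WRKY53, WRKY22, WRKY40 and WRKY67 in all lists, against distance from the TSS in bp, with marker area proportional to the score (circles, replicate 1; squares, replicate 2) and the gene shaded. WRKY53 kept summits between 431 and 515 bp in all 4 genotypes, WRKY40 has none in the 4 loss comparisons, and WRKY67 has none in the 3 mutants over H3.

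Members were also grouped by known role. Of the 25 immunity genes 22 had a common wild-type summit (50.8% of all other genes), 16 one in *mbd9-3* (29.5% of others), 8 one in *arp6-1* (8.63% of others) and 1 one in the double mutant (1.26% of others). Loss was called in 0 of the 25 for *mbd9-3* (9.11% of others), in 11 for *arp6-1* (42.8% of others) and in 18 for the double mutant (53.6% of others). All these calls fell in the 22 genes marked in wild type. Among the other genes marked in wild type, 55.7% had a common summit in *mbd9-3* and 16.8% in *arp6-1*. Depletion there was called in 14.3% for *mbd9-3*, 69.0% for *arp6-1* and 84.5% for the double mutant. Of the 27 members with no listed role 23 had a common wild-type summit (50.8% of others), 8 one in *mbd9-3* (29.5% of others) and 1, WRKY55, one in *arp6-1* (8.63% of others). Among these 27, depletion was called in 5 for *mbd9-3* (9.11% of others), in 16 for *arp6-1* (42.8% of others) and in 20 for the double mutant (53.6% of others). No test of the difference between the sets was made.

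WRKY33, which switches on camalexin synthesis after infection by *Botrytis*, carried 1 common wild-type region at 373 bp (8.04 and 4.93) and kept it in *mbd9-3* (5.58 and 5.09). It had no summit in *arp6-1* and was depleted in *arp6-1 mbd9-3* (7.74 and 3.15). WRKY29 was depleted in *arp6-1* and in the double mutant at 329 bp. WRKY62 had common regions at 253 and 667 bp in wild type, and the first was lost in the double mutant with a lower score of 6.86, the second with 7.38. WRKY3 and WRKY4, a pair of group I genes with roles in resistance to necrotrophs, each had a single region, at 535 and 571 bp, absent in *mbd9-3* from the common set and depleted in *arp6-1* and the double mutant.

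All 4 phosphate genes had a common wild-type summit (50.8% of others). WRKY6, which represses the phosphate exporter gene PHO1, had common regions at 523 bp and 2355 bp and was depleted at 523 bp in *arp6-1 mbd9-3* (6.69 and 10.5). WRKY75 had one at 302 bp (5.42 and 6.31) and was depleted in *arp6-1* (6.48 and 9.45) and the double mutant (8.02 and 7.38). WRKY45 kept summits in all but the double mutant, with 13.6 and 8.02 in wild type and 3.14 and 5.61 in *arp6-1*. At 355 bp WRKY45 was nevertheless H2A.Z-depleted in *arp6-1* (3.80 and 4.64) and in the double mutant (9.42 and 9.47). WRKY42 is described above. Of 8 developmental genes 5 had a common wild-type summit (50.8% of others). All 5 had one in *mbd9-3*, beside 55.7% of the other genes marked in wild type, and were depleted in the double mutant, beside 84.5%. They were WRKY2, which acts in pollen and the zygote, WRKY10, an endosperm gene of seed size, WRKY13, a gene of stem lignification, WRKY23 and WRKY27. Of the 3 genes for heat and drought only WRKY57, a drought gene, had a common wild-type summit (50.8% of others), at 612 bp. WRKY57 also had one in *mbd9-3* (623 bp) and was depleted in *arp6-1* and the double mutant.

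A list of 13 genes that work with WRKY proteins was examined in the same way, with kinases upstream, proteins that bind WRKY factors, and targets. Of these 13, 7 had a common wild-type summit (50.8% of other genes), 5 one in *mbd9-3* (29.5%) and 1 one in *arp6-1* (8.63%). Depletion was called in 2 for *mbd9-3* (9.11%), 10 for *arp6-1* (42.8%) and 11 for the double mutant (53.6%). Of the kinase genes MPK3, MPK4, MPK6, MKK4, MKK5 and MEKK1 only MPK4 had a common wild-type summit, while MKK4 and MKK5 had a wild-type summit in replicate 1 alone. MKK4, MKK5, MPK4 and MEKK1 were depleted in *arp6-1* and the double mutant, and MKK5 and MEKK1 were the 2 depleted in *mbd9-3*. MPK3 and MPK6 were not called in any comparison. SIB1, which binds WRKY33, kept a common summit in *arp6-1* but was also H2A.Z-depleted there and in the double mutant. Its relative SIB2 had no common summit in *arp6-1* and was depleted in the double mutant but not in *arp6-1*. MKS1, which links MPK4 to WRKY33, had a common summit in wild type and *mbd9-3*. The histone deacetylase gene HD1 (also HDA19), whose product binds WRKY38 and WRKY62, had no summit over H3 in any list but was depleted in *arp6-1* and the double mutant. The targets PAD3 and CYP71A13, both of camalexin synthesis, had 3 and 2 common wild-type regions, and PHO1 had 3.

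WRKY genes are themselves common targets of WRKY proteins, so the 250 bp before each TSS were searched for TTGACC and TTGACT on both strands. At least 1 such W box was found in 24 of 67 members (35.8%, beside 28.4% of all other promoters of this length), and at least 2 in 10 members (14.9%, beside 6.16%). The count was 0 in 43 members, 1 in 14, 2 in 9 and 3 in WRKY30. The share with a W box was 36.4% (20 of 55) in members with a common wild-type summit and 33.3% (4 of 12) in those without. No W box was found in the searched window of WRKY22 or WRKY40. The promoters of WRKY30, WRKY33 and WRKY53 are shown as the one with most W boxes and 2 of well-known defence genes with 2 each, ending 1 base before the TSS, with the W boxes in capitals.
WRKY30 promoter (chr5:8154711-8154960, minus strand): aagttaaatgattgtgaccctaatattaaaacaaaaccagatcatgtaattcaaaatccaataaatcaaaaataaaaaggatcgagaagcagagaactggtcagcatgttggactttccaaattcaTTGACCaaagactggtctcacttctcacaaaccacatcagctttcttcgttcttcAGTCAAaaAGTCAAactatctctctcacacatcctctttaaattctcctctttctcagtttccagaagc
WRKY33 promoter (chr2:16107985-16108234, plus strand): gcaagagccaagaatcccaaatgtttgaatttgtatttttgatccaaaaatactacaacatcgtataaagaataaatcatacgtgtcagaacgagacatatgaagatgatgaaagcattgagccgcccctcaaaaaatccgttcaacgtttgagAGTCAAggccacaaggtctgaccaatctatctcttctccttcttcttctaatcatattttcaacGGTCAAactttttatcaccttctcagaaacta
WRKY53 promoter (chr4:12393983-12394232, minus strand): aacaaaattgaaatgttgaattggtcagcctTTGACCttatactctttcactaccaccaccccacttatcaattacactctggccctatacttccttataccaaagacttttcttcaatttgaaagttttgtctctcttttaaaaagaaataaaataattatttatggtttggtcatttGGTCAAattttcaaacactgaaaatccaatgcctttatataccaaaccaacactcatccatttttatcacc
In WRKY30 a pair of W boxes on the opposite strand is separated by 2 bases. These windows lie before the TSS, and the nearest common wild-type centres were 373 bp into WRKY33 and 475 bp into WRKY53.

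The 201 bp around the region centres were no richer in W boxes than those of other genes, at 15 of 83 regions (18.1%, beside 17.3%), and their median GC content was 46.8%, beside 45.3%. The highest number was 4, in the coding exon region of WRKY72, a gene of basal defence, which had summits in both wild-type replicates (lower score 2.93) and was depleted nearby in *arp6-1* (930 bp) and in *arp6-1 mbd9-3* (882 bp). It is shown for these 4 matches.
WRKY72 region at 920 bp (chr5:4905110-4905310, plus strand): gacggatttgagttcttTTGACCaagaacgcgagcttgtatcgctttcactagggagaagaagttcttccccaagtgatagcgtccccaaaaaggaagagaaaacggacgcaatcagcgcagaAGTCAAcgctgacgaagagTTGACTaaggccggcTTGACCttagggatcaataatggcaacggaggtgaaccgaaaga
A match is a description of the letters and does not show that a WRKY protein binds there.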

How the data were processed

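H2A.Z and H3 ChIP-seq libraries came from shoots of 4 genotypes with 2 replicates each. The authors aligned reads to TAIR10 with Bowtie, used SAMtools, and called peaks per replicate with MACS2 2.1.1 (q value below 0.01, extension size 200 bp). They deposited summit lists whose score is the −log10 of the q value. The scaling between H2A.Z libraries behind the 8 differential lists is not given in the sources used here, and another scaling could change how much loss was called. Depth is unknown, since the lists hold no counts.

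Each summit was widened by 100 bp to either side, overlaps between replicates were merged into common regions, and a region was scored by the weaker replicate's best summit. A summit could pair with 2 summits of the other replicate and so give 2 regions. Genes were called by an overlap of at least 1 bp with TSS to TES in the TAIR10.1 annotation, whose nuclear sequence is that of TAIR10 and whose gene extents may be longer than those of TAIR10. No summit lay outside the chromosome lengths. A position was counted as retained or lost within 200 bp of a wild-type centre. Sequences were read from RefSeq TAIR10.1. Analyses used Python 3.11.15, NumPy 2.4.6, SciPy 1.17.1, Biopython 1.88 and Matplotlib 3.10.9, and the joining of summits was tested on simulated data. Alternatives were each replicate alone, joining within 100 or 500 bp, a score of at least 5, 500 bp added upstream, members by synonym and windows of 300 or 700 bp.

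The members, gene lists and tests were chosen with earlier results of these data known. Named were members depleted in *mbd9-3* or in the double mutant compared with *arp6-1*, those with a common summit in *arp6-1* or the double mutant, those with no common wild-type summit, the 5 with the highest score in the weaker wild-type replicate, those with most wild-type regions, members with a listed role, and the 13 partner genes. The 5 places for most regions could not be filled beyond 2 genes because of ties. WRKY30, WRKY56, WRKY59, WRKY64 and WRKY65 fall outside this rule and were named after their values were seen. Comparisons with wild type share the wild-type libraries. H3 signal and the expression data of the study were not analysed here.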

Additional observations from a re-analysis of the deposited data

How the results depend on the processing

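Of 74 values under alternative settings, 59 stayed within 1.5 times the count given and 15 moved further. With either replicate alone the members with a common summit numbered 58 for wild type, 34 to 42 for *mbd9-3*, 14 to 25 for *arp6-1* and 6 to 7 for the double mutant. H2A.Z-depleted members then numbered 11 to 17 for *mbd9-3*, 40 to 46 for *arp6-1*, 51 to 55 for the double mutant and 1 to 3 for the double mutant compared with *arp6-1*, and members of at least 1500 bp with a gene-body summit 32 to 36. Joining within 100 bp left 0 members for *arp6-1 mbd9-3* compared with *arp6-1*. With a score of at least 5 the common summits were left in 34 members for wild type, 17 for *mbd9-3* and 3 for *arp6-1*, the depleted members were 3 for *mbd9-3*, 14 for *arp6-1* and 0 for the double mutant compared with *arp6-1*, and the gene-body members 17. Windows of 700 bp gave 14 gene-body members. These counts fall by construction with fewer summits or a narrower gene body. Members by synonym, 500 bp upstream, joining within 500 bp and the region centre in place of any overlap, the last chosen after seeing the data, moved no count by over 1.5 times. No paired analysis was possible because the results are counts from lists already compared within a replicate number and come from no test. Depth limits the absence of a summit, which shows only that none passed the q value limit.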

Other observations

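The genes TTG2, ABO3, RRS1, TTR1 and ZAP1 carry a WRKY number only as a synonym (WRKY44, WRKY63, WRKY52, WRKY16 and WRKY1) and were not counted as members. They fall outside the rule for named genes and were named after their values were seen. TTG2, which acts in trichome and seed coat development, had 5 common wild-type regions, beside a highest count of 4 among the members, and 1 in *mbd9-3*. The 5 regions came from 4 and 5 wild-type summits. TTG2, ABO3 and TTR1 were H2A.Z-depleted in *mbd9-3*, so that with these 5 genes added the count rose from 6 of 67 to 9 of 72 (12.5%, beside 9.10% of the other genes). ABO3 had 1 and 2 wild-type summits, and 1 loss summit in each *mbd9-3* replicate. ZAP1 had no summit in any list. RRS1 had a common wild-type summit and was depleted in *arp6-1* and in *arp6-1 mbd9-3*.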
